A study of Mus musculus with 8 samples.

Results

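The genes that make, hold or receive TGF-beta, together with the gene of activin A, were followed in whole mouse knee joints: the ligand genes Tgfb1, Tgfb2 and Tgfb3, the receptor genes Tgfbr1, Tgfbr2 and Tgfbr3, the latent binding protein genes Ltbp1, Ltbp2 and Ltbp3, and Inhba, which encodes the subunit of activin A. They were picked by gene name, and 10 of 10 were found among the 20681 genes of the table. All of them passed the filter on low values, which asked for 10 or more normalised reads in no fewer than 4 of the 8 libraries. The smallest number of reads behind any value was 60, for Inhba in control replicate 1.

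Poly-A RNA was sequenced from 8 knee joints of Acan-Cre;Loxl2 fl/fl mice, 4 labelled control and 4 labelled knockout. The control libraries are named Vehicle_DMM_LOXL2wt and are described as given vehicle, and the others are named KO_DMM_LOXL2ko, with no agent named for them in the labels. All 8 names carry DMM, usually short for destabilisation of the medial meniscus, an operation that injures the joint, and the title of the series speaks of injury. Cre under the aggrecan gene Acan acts in chondrocytes, so Loxl2, which encodes a collagen-crosslinking enzyme, would be deleted in only part of the cells of a whole joint. The libraries held 13991000 to 17411617 reads assigned to genes.

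As a check of the labels, the normalised read count of Loxl2 stood at 282, 349, 1135 and 311 in the controls, replicates 1 to 4, against 893, 1468, 960.3 and 1518 in the libraries labelled knockout. The transcript was not lower in the libraries labelled knockout (log2 difference 1.44, SE 0.40, limma adjusted p = 0.0294, groups overlapping through control replicate 3), and the groups are called by their labels. With 1 library left out, Loxl2 was called higher in 3 of 8 fits (limma adjusted p up to 0.0849), with log2 differences of 1.24 to 1.91. The libraries held far more muscle than cartilage RNA: the 7 skeletal muscle markers summed to between 1473853 and 1644870 normalised reads in control libraries and between 680294 and 1054826 in those labelled knockout. The 7 cartilage markers summed to 3039 to 7877 and to 7951 to 12341, and 1 of them, Matn3, was at 0 in control replicate 3. Most of these sums came from Comp, with 2565 to 6974 and 5810 to 11075. Of the 7 cartilage markers, 1 was called higher by limma. Acan itself had 52.3 to 544 normalised reads in control libraries and 184 to 372 in those labelled knockout. Nothing in the labels says that the joints came from separate animals or litters, so p-values measure the spread between these 8 samples.

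TGF-beta is made as a precursor whose propeptide stays wrapped around the mature ligand, and a latent TGF-beta binding protein ties this complex to the extracellular matrix. Integrins and proteases release the ligand, which binds the type II receptor encoded by Tgfbr2, brings in the type I receptor kinase encoded by Tgfbr1 and leads to phosphorylation of Smad2 and Smad3. Tgfbr3 encodes betaglycan, a co-receptor that helps present the ligand, above all the product of Tgfb2. Activin A signals through its own receptors to the same Smads. In joints this pathway is known for keeping articular chondrocytes from hypertrophy and for driving synovial fibrosis and bony outgrowth after injury.

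The start sites of these genes differ in sequence, and 1 gene per family is shown here, with Tgfb2 beside Tgfb1 because among the ligands these had the smallest and the largest difference between the groups. These genes were chosen for display after their values were seen. Each line gives the 250 bases before the RefSeq transcription start, 5′ to 3′ on the strand of the gene, on GRCm38.p6, the build called mm10. Capitals mark matches on either strand to 5 short motifs: the GC box GGGCGG, the TATA box TATAAA, the AP-1 site TGANTCA, the Smad box CAGACA and the cyclic AMP response element TGACGTCA.
Tgfb1: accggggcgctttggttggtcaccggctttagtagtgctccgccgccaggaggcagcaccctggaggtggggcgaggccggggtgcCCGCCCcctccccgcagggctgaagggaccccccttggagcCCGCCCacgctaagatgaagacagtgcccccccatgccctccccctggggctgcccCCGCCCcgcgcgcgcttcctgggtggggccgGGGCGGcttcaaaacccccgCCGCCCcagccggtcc
Tgfb2: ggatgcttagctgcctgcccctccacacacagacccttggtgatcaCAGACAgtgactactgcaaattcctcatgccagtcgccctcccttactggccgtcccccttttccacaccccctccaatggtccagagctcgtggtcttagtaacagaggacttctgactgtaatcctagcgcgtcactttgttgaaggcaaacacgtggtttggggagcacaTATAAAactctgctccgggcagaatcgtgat
Tgfbr1: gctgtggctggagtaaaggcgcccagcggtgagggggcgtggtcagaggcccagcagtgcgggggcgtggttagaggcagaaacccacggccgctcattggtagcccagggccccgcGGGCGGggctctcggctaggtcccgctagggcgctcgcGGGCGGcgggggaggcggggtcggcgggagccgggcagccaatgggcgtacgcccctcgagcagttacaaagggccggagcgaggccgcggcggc
Ltbp1: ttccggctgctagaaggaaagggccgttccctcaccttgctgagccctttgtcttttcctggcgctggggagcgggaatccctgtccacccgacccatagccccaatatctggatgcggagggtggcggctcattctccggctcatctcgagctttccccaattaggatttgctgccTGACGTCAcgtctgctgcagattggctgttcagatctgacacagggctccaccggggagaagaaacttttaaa
Inhba: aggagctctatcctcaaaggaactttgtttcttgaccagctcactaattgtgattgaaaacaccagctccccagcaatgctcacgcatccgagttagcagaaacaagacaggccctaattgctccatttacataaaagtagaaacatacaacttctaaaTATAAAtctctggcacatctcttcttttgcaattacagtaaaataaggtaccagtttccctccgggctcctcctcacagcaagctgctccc
The windows lie at chr7:25686752-25687001 (plus strand) for Tgfb1, chr1:186705990-186706239 (minus) for Tgfb2, chr4:47352972-47353221 (plus) for Tgfbr1, chr17:75005279-75005528 (plus) for Ltbp1 and chr13:16011601-16011850 (plus) for Inhba. The Tgfb1 window held 5 GC boxes and no TATA box, and 75.2% of its bases were G or C, against a median of 52.4% over 32851 windows of the same length. The Tgfb2 window held a TATA box 31 to 26 bases before the start, a Smad box, and 53.6% G or C. The Tgfbr1 window had 2 GC boxes and 74.8% G or C. The Ltbp1 window had a cyclic AMP response element 73 to 66 bases before the start, and the Inhba window a TATA box 91 to 86 bases before it. Of all windows, 32.7% held the GC box, 12.4% the TATA box, 6.75% the AP-1 site, 17.1% the Smad box and 1.55% the cyclic AMP response element. Tgfbr1 and Ltbp1 each have a second RefSeq start further into the gene, and the counts, which are per gene, do not tell the starts apart. The windows before these second starts, not shown, held 1 Smad box for Tgfbr1 and 2 for Ltbp1. Of the 10 genes 8 had an entry in the promoter table, and Tgfb3 and Tgfbr3 had none.

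Levels of different genes were set side by side as normalised reads per kilobase of exon. In control libraries Tgfb3 and Ltbp3 stood highest, at 304 ± 19.7 and 282 ± 41.1 reads per kilobase (SD, n = 4 here and below), and their ranges overlapped. Tgfbr2, whose range lay below that of Ltbp3, followed at 124 ± 19.8, Tgfb2 at 115 ± 4.15, Ltbp2 at 93.0 ± 49.4, Tgfbr1 at 87.9 ± 5.47, Tgfb1 at 87.0 ± 23.8 and Tgfbr3 at 83.4 ± 16.9, and each neighbour in this order overlapped the next. Ltbp1 at 36.2 ± 9.01 and Inhba at 26.3 ± 18.9 were lowest and overlapped each other, while Tgfbr3 lay above Ltbp1 in 4 of 4 control libraries without overlap. In the libraries labelled knockout Ltbp3 (396 ± 98.2) and Tgfb3 (393 ± 28.1) were again highest, with overlapping ranges, and Tgfbr2 (200.1 ± 54.0), Ltbp2 (194 ± 122), Tgfb1 (174 ± 55.0), Tgfbr1 (134 ± 26.8), Tgfb2 (114 ± 11.3) and Tgfbr3 (107 ± 20.3) followed, each overlapping the next. Ltbp1 (69.2 ± 11.1) and Inhba (51.2 ± 18.6) were again lowest. By this length the order of Tgfb1 and Tgfb2 was the reverse of that in control libraries. With the longest transcript as the length, an alternative chosen after seeing the data, Tgfb1 exceeded Tgfb2 under both labels. Even by exon length Tgfb1 already exceeded Tgfb2 in control replicate 3 (119 against 112).

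Between the groups, the ligand, receptor and binder families each contained a gene that rose and a gene that did not pass the test. Tgfb1 and Ltbp1 were close to 2-fold higher in the libraries labelled knockout, Tgfbr1 and Tgfbr2 about 1.5-fold, and Tgfb3 1.29-fold. Tgfb2 had nearly the same mean in both groups. Of the 10 genes, 5 were called higher in the libraries labelled knockout by limma at a Benjamini-Hochberg adjusted p under 0.05 over all genes tested, against 11.6% of the 14949 genes tested (23.2% in either direction). The groups did not overlap for 4 of the 10, all higher in the libraries labelled knockout, against 11.7% of the genes tested (25.1% in either direction). By limma 0 of the 10 genes were called lower, and 0 were lower at an unadjusted p under 0.05 or called lower by edgeR or DESeq2. By edgeR the same 5 were called, against 11.3% of genes called higher by that test, and by DESeq2 these and Ltbp3, against 14.3%. The median log2 difference of the 10 genes was 0.62, and that of all genes tested was 0.00. Over all genes tested, 1732 were called higher and 1729 lower. When the libraries were scaled without muscle, erythroid and the most abundant genes, these were 2764 and 761 (78.4% higher), the median of all genes moved to 0.15, and the median of the 10 genes was 0.78, with 6 called higher. In bulk tissue, more cells of a type and more RNA per cell cannot be told apart.

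**Figure D1:**
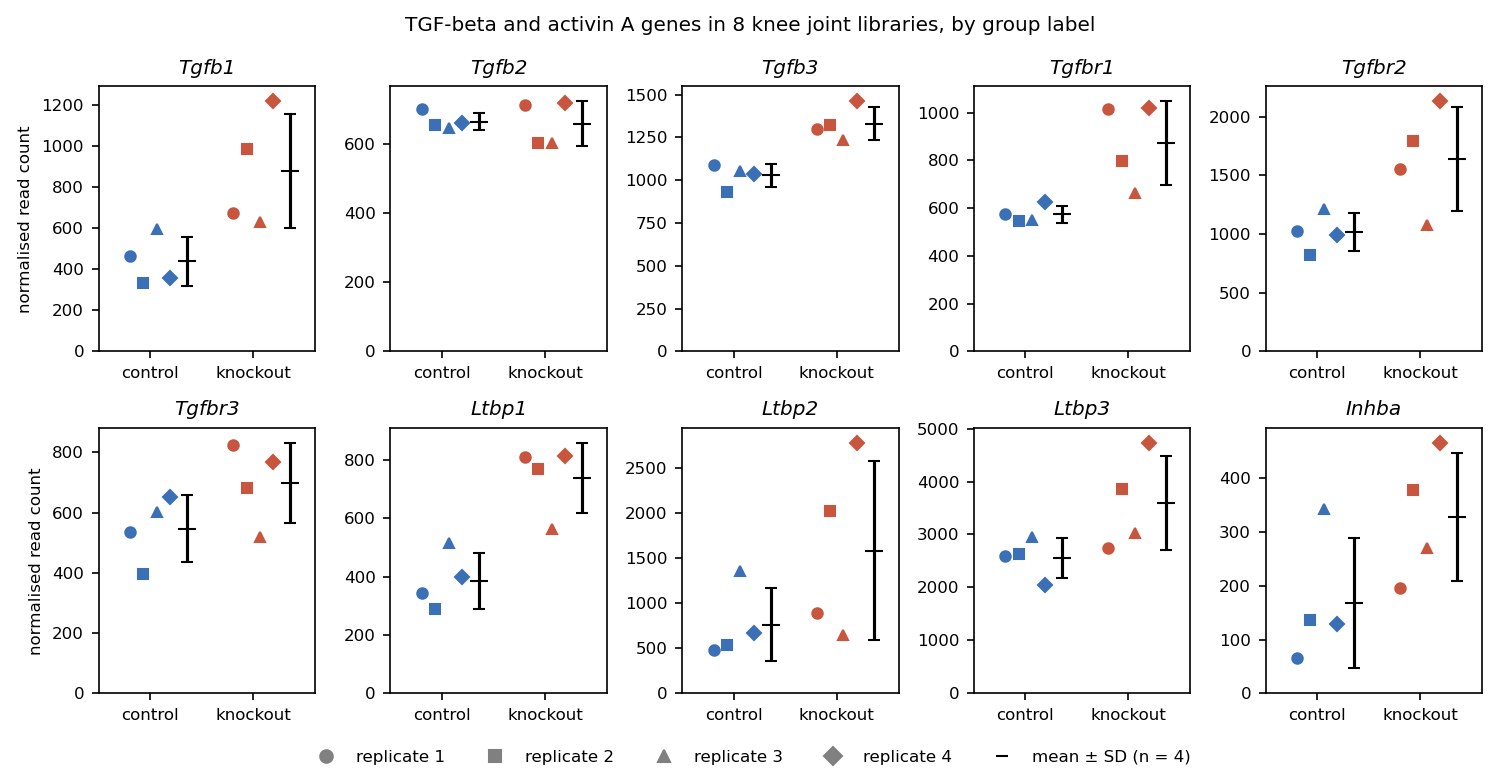
Normalised read counts (vertical axes, from 0, a separate scale for each gene) of the 10 genes in the control libraries (blue) and the libraries labelled knockout (red), with 1 symbol per replicate number and the mean ± SD in black. The groups are separate for Tgfb1, Tgfb3, Tgfbr1 and Ltbp1, Tgfb2 lies between 602 and 720 in all 8 libraries, and control replicate 3 (triangle) is the highest control for Tgfb1, Tgfbr2, Ltbp1, Ltbp2, Ltbp3 and Inhba.

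Tgfb1 encodes the ligand most often studied in fibrosis and is made by many cell types, macrophages and platelets among them. Its gene spans bases 25687002 to 25705077 of chromosome 7 in mm10 (plus strand), and overlaps no other annotated gene. Its normalised read count was 463, 333, 598 and 360.4 for replicates 1 to 4 of the control label, against 677, 988, 631 and 1221 for those of the knockout label. The lowest library labelled knockout, replicate 3, stood just above the highest control, replicate 3, so the groups were separate by a narrow margin. The mean rose from 439 ± 120.2 to 879 ± 278, or 0.99 on the log2 scale (SE 0.24, limma adjusted p = 0.0184, exact permutation p = 0.0286, the smallest that 4 against 4 allows). Leaving out 1 library at a time, the call was lost 3 times in 8: without control replicate 2 (limma adjusted p = 0.0544), control replicate 4 (0.0507) or knockout replicate 4 (0.0513).

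Tgfb2 encodes the ligand that depends most on betaglycan. Its gene spans bases 186622792 to 186705989 of chromosome 1 (minus strand), with the small RNA gene Gm26169 and the antisense gene Gm29491 opposite. The normalised read count of Tgfb2 was 701, 655, 647 and 661 in the control libraries and 713, 604, 602 and 720.0 in those labelled knockout. The spread was narrow, with the highest library 1.08 times the lowest under the control label and 1.20 times under the knockout label, where that of Tgfb3 was 1.18 times. The libraries labelled knockout lay on either side of the controls, 2 above all of them and 2 below. The log2 difference was -0.02 with a 95% confidence interval of -0.22 to 0.19 (limma adjusted p = 0.907, exact permutation p = 0.943). The sign of this difference turned with the scaling, to 0.01 under quantile normalisation and 0.14 under the scaling without muscle genes.

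Tgfb3 was the most abundant of the 3 ligand genes per kilobase. It spans bases 86056745 to 86079041 of chromosome 12 (minus strand), and Ttll5, Gm37804 and Gm48008 lie opposite, so reads are uncertain if strand was not used in counting, which the sources used here do not state. The normalised read count of Tgfb3 was 1089, 934, 1053 and 1037 in control libraries and 1300.5, 1322, 1238 and 1463 in those labelled knockout. All 4 libraries labelled knockout lay above all 4 controls, and the spread within each group was small. The mean went from 1028 ± 66.7 to 1331 ± 95.1, or 0.37 on the log2 scale (SE 0.08, limma adjusted p = 0.0148, exact permutation p = 0.0286). The rise was modest in size but was called whichever of the 8 libraries was left out, with adjusted p-values of 0.0136 to 0.0452.

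Whether genes of 1 family changed by unequal amounts was tested on their log2 ratio within each library. Of 10 such ratios (3 in each family, and Inhba to Fst), 2 had an exact permutation p under 0.05, and after Benjamini-Hochberg adjustment over the 10 ratios 0 did. The smallest exact p of 4 against 4 libraries is 0.0286, so 2 ratios at that value could not pass the adjustment. The adjusted values therefore do not decide the question. The log2 ratio of Tgfb2 to Tgfb1 was 0.60, 0.97, 0.11 and 0.87 in control libraries and 0.07, -0.71, -0.07 and -0.76 in those labelled knockout. The groups were separate, the difference was -1.0 with a standard error of 0.29, and the exact permutation p was 0.0286 (0.143 adjusted over the 10 ratios). Without control replicate 3 the exact permutation p stayed at 0.0286, and without any other single library it was 0.0571, with differences of -1.18 to -0.87 over all of these.

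The ratio of Tgfb2 to Tgfb3 was more even within groups, at -0.64, -0.51, -0.70 and -0.65 in control libraries and -0.87, -1.13, -1.04 and -1.02 in those labelled knockout. It differed by -0.39 with a standard error of 0.07 (exact permutation p = 0.0286, 0.143 adjusted), and leaving out any library gave -0.44 to -0.35. The ratio of Tgfb3 to Tgfb1 differed by -0.62 with a standard error of 0.24, and its groups overlapped (exact permutation p = 0.0857). Without control replicate 3 this difference was -0.76 (exact permutation p = 0.0286).

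**Figure D2:**
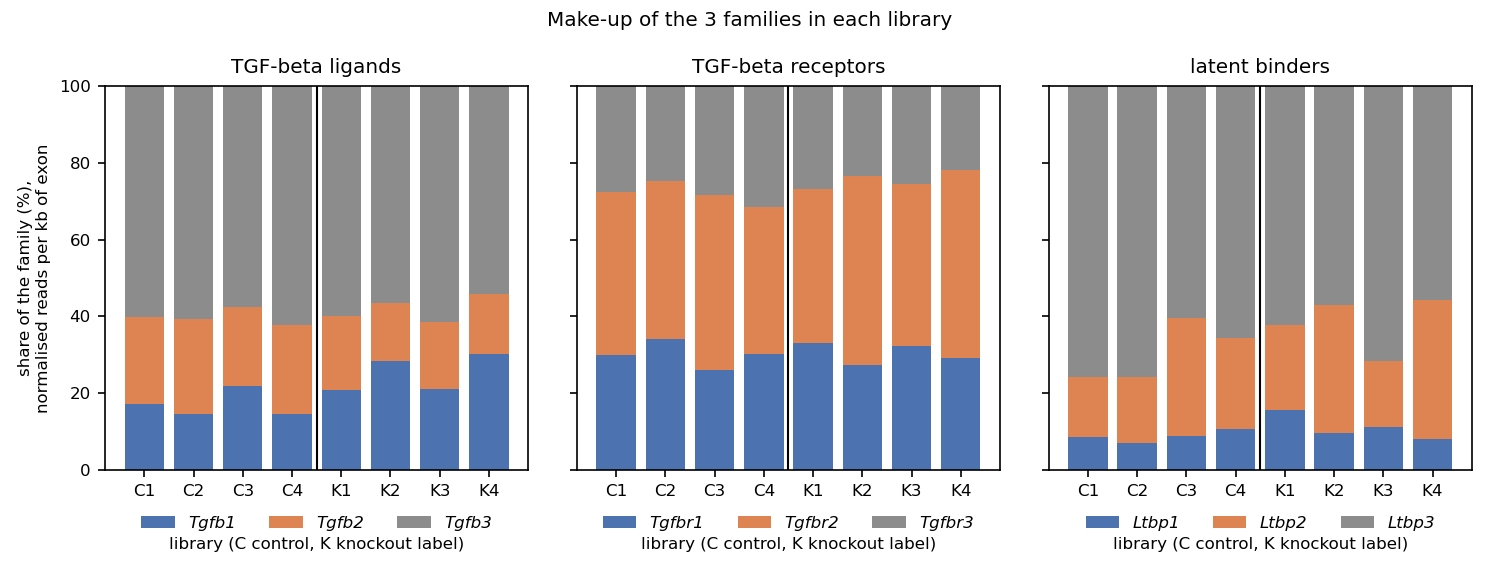
Share of each gene in its family (vertical axis, percent of the summed normalised reads per kilobase of exon) in each library, for the ligands, receptors and latent binders, with control libraries (C1 to C4) left of the line and libraries labelled knockout (K1 to K4) right of it. Tgfb2 takes 20.6 to 24.9% of the ligand RNA in control libraries and 15.1 to 19.2% in those labelled knockout, while Tgfbr2 takes 38.2 to 45.7% and 40.2 to 49.2% of the receptor RNA.

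As shares of the ligand RNA per kilobase, Tgfb1 held 17.0 ± 3.48% in control libraries and 25.2 ± 4.89% in those labelled knockout, and its ranges overlapped. Tgfb2 held 22.8 ± 1.75% and 16.8 ± 1.88%, with ranges that did not overlap, and Tgfb3 held 60.2 ± 2.0% and 58.0 ± 3.31%. These shares depend on the length taken for each gene. With the longest transcript in place of all exons, a choice made after seeing the data, the share of Tgfb1 in control libraries was 27.9% and that of Tgfb2 21.7%, so the order of these genes in control libraries turned.

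Among the receptors, Tgfbr1 and Tgfbr2, which encode the type I and type II kinases, were both called higher. Tgfbr1 spans bases 47353222 to 47414931 of chromosome 4 (plus strand), and overlaps no other annotated gene. Its normalised read count was 576, 546, 551 and 624 in control libraries and 1016, 798, 661 and 1018 in those labelled knockout. The groups were separate, and the spread was wider among the libraries labelled knockout (highest to lowest ratio 1.54) than among controls (1.14). The mean went from 575 ± 35.7 to 873 ± 175, or 0.58 on the log2 scale (SE 0.14, limma adjusted p = 0.0176, exact permutation p = 0.0286). Without control replicate 2 the limma adjusted p was 0.0503 and without knockout replicate 4 it was 0.0538.

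Tgfbr2 spans bases 116084293 to 116175360 of chromosome 9 (minus strand), with no overlapping gene. Its normalised read count was 1027, 822, 1216 and 989 in control libraries and 1551, 1791, 1079.9 and 2132 in those labelled knockout. Knockout replicate 3 fell below control replicate 3, so the groups overlapped, and the other 3 libraries labelled knockout lay above all controls. It differed by 0.66 on the log2 scale (SE 0.20, limma adjusted p = 0.0364, exact permutation p = 0.0571). This was the least stable of the 5 calls: with 1 library left out it was lost 6 times in 8, that is unless the library was replicate 3 of either group, with limma adjusted p-values up to 0.10.

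Tgfbr3, the betaglycan gene (chromosome 5, 107106570 to 107289629, minus strand, with the pseudogene Gm8145 opposite and Gm43422, Gm43423 and Gm42900 on its own strand), had 534, 397, 602 and 652 normalised reads in control libraries and 825, 682, 520 and 767 in those labelled knockout. Knockout replicate 3 lay among the controls. The log2 difference was 0.36 with a 95% confidence interval of -0.05 to 0.76 (limma adjusted p = 0.175, exact permutation p = 0.143). Without control replicate 2 it was 0.21. With all libraries the 3 ratios among receptor genes gave no exact permutation p under 0.171. The ratio of Tgfbr2 to Tgfbr1 differed by 0.08 (standard error 0.18), that of Tgfbr3 to Tgfbr1 by -0.23 (0.14) and that of Tgfbr3 to Tgfbr2 by -0.31 (0.17). The ratio of Tgfbr3 to Tgfbr1 differed by -0.35 without control replicate 2, and that of Tgfbr3 to Tgfbr2 by -0.41 without knockout replicate 1, each with an exact permutation p of 0.0286 before adjustment. In each group Tgfbr2 made up the largest share of receptor RNA per kilobase, 41.9 ± 3.11% in control libraries and 45.1 ± 4.57% in those labelled knockout.

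The latent binding proteins anchor the ligand in the matrix. Ltbp1, whose product binds the latent complex (chromosome 17, 75005568 to 75392512, plus strand, with the processed pseudogene Gm6276 within it), had 344, 290, 515 and 398 normalised reads in control libraries and 811, 769, 563 and 814 in those labelled knockout. All 4 libraries labelled knockout lay above all controls, with replicate 3 of each group closest to each other. The mean rose from 387 ± 96.3 to 739 ± 119, or 0.95 on the log2 scale (SE 0.18, limma adjusted p = 0.00880, exact permutation p = 0.0286). The limma adjusted p was the lowest of the 10 genes, and the call was kept whichever of the 8 libraries was left out, with adjusted p-values of 0.00400 to 0.0310.

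Ltbp2, whose product sits on fibrillin microfibrils and, unlike its relatives, is not known to bind latent TGF-beta, spans bases 84783212 to 84876532 of chromosome 12 (minus strand), opposite D030025P21Rik. Its normalised read count was 486, 536, 1357 and 667 in control libraries and 888, 2021, 649 and 2777 in those labelled knockout. Control replicate 3 exceeded 2 of the libraries labelled knockout, and the highest library labelled knockout held 4.28 times the reads of the lowest. Its log2 difference of 0.94 was as large as that of Ltbp1, but with a standard error of 0.47 it did not pass the test (limma adjusted p = 0.166, exact permutation p = 0.200). Without knockout replicate 4 it was 0.59, and that of Ltbp1 0.90.

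Ltbp3, whose product binds the latent ligand and is known from skeletal defects when lost, spans bases 5740904 to 5758532 of chromosome 19 (plus strand). Its normalised read count was 2588, 2623, 2954 and 2053 in control libraries and 2752, 3856, 3032 and 4727 in those labelled knockout. The groups overlapped through knockout replicate 1. It differed by 0.47 on the log2 scale (SE 0.17, limma adjusted p = 0.0751, exact permutation p = 0.0571), and Ltbp3 was called with DESeq2 (adjusted p = 0.0314), under quantile normalisation (limma adjusted p = 0.0325), under the scaling without muscle genes (0.0332) and without knockout replicate 1 (0.0453). Ltbp3 held 69.4 ± 7.68% of the binder RNA per kilobase in control libraries and 61.7 ± 7.25% in those labelled knockout. The ratios among binder genes gave exact permutation p-values of 0.143 for Ltbp3 to Ltbp1 (difference -0.48, standard error 0.25), 0.286 for Ltbp3 to Ltbp2 (-0.47, 0.45) and 0.971 for Ltbp2 to Ltbp1 (-0.01, 0.46).

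Inhba encodes the subunit that pairs with itself to form activin A. It spans bases 16011851 to 16031621 of chromosome 13 (plus strand), with the pseudogene B230303A05Rik and the antisense gene Gm48444 opposite. Its normalised read count was 64.9, 136, 343 and 128 in control libraries and 195, 378, 269.7 and 465 in those labelled knockout. Control replicate 3 exceeded knockout replicates 1 and 3 and held 5.29 times the reads of control replicate 1. The control mean was 168 ± 121 and that of the knockout label 327 ± 119, or 1.14 on the log2 scale (SE 0.45), which did not pass the test (limma adjusted p = 0.0906, exact permutation p = 0.0857). Without control replicate 3 the log2 difference was 1.56 and Inhba was called (limma adjusted p = 0.0135).

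Fst, which has the antisense gene Gm47040 opposite, encodes follistatin, which binds and blocks activin. Its mean was 123 ± 24.2 in control libraries and 114 ± 26.9 in those labelled knockout. The log2 ratio of Inhba to Fst was 0.21 ± 1.14 in control libraries and 1.46 ± 0.51 in those labelled knockout, and the groups overlapped (difference 1.25, standard error 0.62, exact permutation p = 0.114). Without control replicate 3 the difference was 1.76 (exact permutation p = 0.0286).

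**Figure D3:**
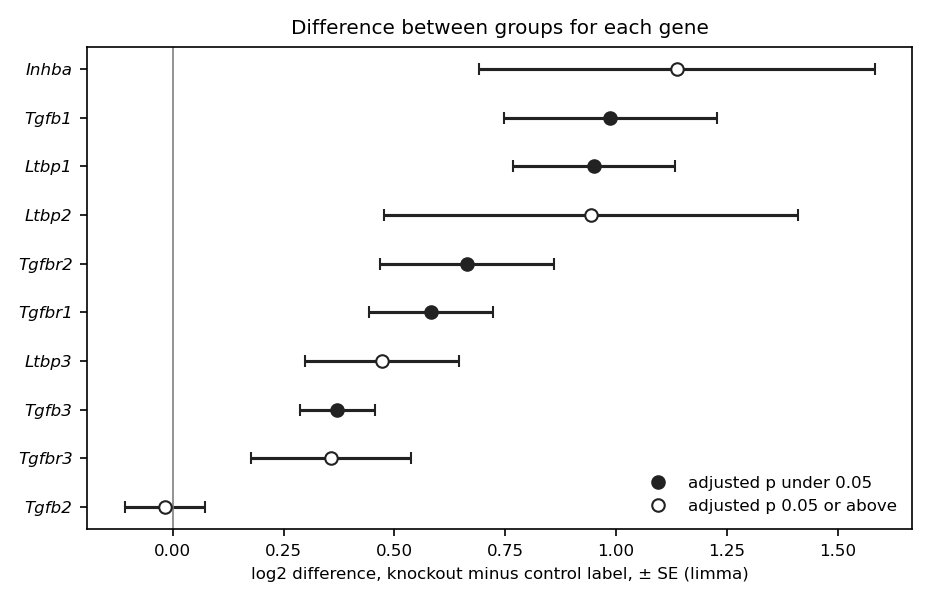
Log2 difference between the groups (horizontal axis, libraries labelled knockout minus control, with the standard error of the limma fit) for each of the 10 genes, ordered by size, filled where the adjusted p was under 0.05. Inhba and Ltbp2 have large differences with wide errors, Tgfb3 a small difference with a narrow one, and Tgfb2 lies at -0.02.

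Single libraries moved with several of these genes at once. Control replicate 3 was the highest control for 6 of the 10 genes, and knockout replicate 3 was the lowest of its group for 8 of them, while knockout replicate 4 was the highest of its group for 9. Markers of other cell types moved with the groups as well. The 8 fibroblast markers summed to 9938 to 25676 normalised reads in control libraries, the highest being control replicate 3, and to 21152 to 48272 in those labelled knockout, the lowest being replicate 3. All 8 had a higher mean in the libraries labelled knockout and 6 were called higher. The 7 macrophage markers summed to 2525 to 6069 and to 8754 to 12879, and 7 of 7 were called higher. No fibroblast or macrophage marker was at 0 in any library. The 5 osteoclast markers had the largest median log2 difference of the marker lists, 2.92, with 5 of 5 called higher and sums of 1826 to 13687 and 10038 to 38289. All 7 muscle markers had a lower mean under the knockout label, their sums did not overlap between the groups, and 3 were called lower. No marker of endothelium, red cells, neutrophils or fat was called. All 4 red cell markers had a lower mean under the knockout label, with a median log2 difference of -1.97. Their sums were 15084 to 90795 in control libraries and 3919 to 39788 in the others, with overlap. The part of these cell types in the differences of the ligand, receptor and binder genes was not tested, and muscle content and group could not be told apart: 85.2% of the variance of the muscle marker score lay between the groups. With that score as a covariate limma called 0 of the 10 genes and 0 of all genes, with 0 and 608 at an unadjusted p under 0.05.

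The rest of the pathway was read from 51 further genes in 5 groups, all of them abundant enough to test. Of these, 11 were called as higher under the knockout label and 4 as lower, against 11.6% of all genes tested in each direction. An unadjusted p under 0.05 by limma was found for 28 of the 51, and for 5741 of all 14949 genes tested. Without knockout replicate 4 the called genes fell to 9.

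The 12 genes of latent complexes and their activation included 4 that rose, with a median log2 difference of 0.61 over the 12. Some integrins that contain the αv chain activate latent TGF-beta. Itgav, which encodes that chain, rose from 635 ± 80.1 to 1027 ± 204 (log2 difference 0.68, limma adjusted p = 0.0151). Its partner Itgb8 rose from 16.9 ± 6.27 to 52.5 ± 15.8 (1.59, adjusted p = 0.00911), and Itgb5 from 2709 ± 292 to 3505 ± 285 (0.37, adjusted p = 0.0253). The integrin gene Itgb6, also on this list, went the other way, from 501 ± 51.3 to 371 ± 97.2 (-0.46). It was not called (limma adjusted p = 0.0684), and its groups overlapped. Emilin1, an elastic fibre protein known to hold back processing of the TGF-beta precursor, rose from 383 ± 144 to 998 ± 124 (1.46, adjusted p = 0.00604). None of the 4 called genes had overlapping groups, where 25.1% of all genes tested had none in either direction. These 4 were named because they were called, so their separation adds little.

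Of 4 co-receptors and membrane inhibitors, 2 rose, and both are known as inhibitors. Cd109, a membrane protein that binds TGF-beta receptors, went from 364 ± 88.8 to 916 ± 351 (log2 difference 1.28, limma adjusted p = 0.0131). Bambi, a decoy receptor without a kinase, went from 64.2 ± 25.4 to 133 ± 28.7 (1.10, adjusted p = 0.0241).

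Among 13 Smads and Smad regulators the median log2 difference was 0.13, and 3 were called, a share close to the 23.2% of all genes called in either direction. Smad6, which encodes an inhibitory Smad, rose from 236 ± 9.22 to 319 ± 10.5 (log2 difference 0.43, limma adjusted p = 0.0110). Zfyve9, which encodes the anchor protein SARA that brings Smad2 and Smad3 to the receptor, fell from 1235 ± 49.6 to 873 ± 99.1 (-0.51, adjusted p = 0.00831). Ppm1a, a phosphatase gene, fell from 3938 ± 275 to 3044 ± 360 (-0.38, adjusted p = 0.0248). The groups were separate for these 3 genes, which were named because they were called, and for 25.1% of all genes tested in either direction. The other 10 were not called, among them Smad2 (log2 difference 0.13) and Smad3 (-0.08), the signal carriers, their partner Smad4 (-0.07) and the inhibitory Smad7 (0.20).

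Activins, inhibins, related ligands, their receptors and antagonists gave 10 genes with a median log2 difference of -0.22, of which 2 fell and 0 were called higher. This too is close to the 23.2% of all genes called in either direction, so neither of these counts sets its group apart. Mstn, the gene of myostatin, which is made by skeletal muscle, fell from 616 ± 67.9 to 349.6 ± 98.2 (log2 difference -0.85, limma adjusted p = 0.0128). The sum of the muscle markers was lower in the same libraries, and a link between it and Mstn was not tested. Gdf11, a close relative of Mstn, fell from 408 ± 109.7 to 211 ± 62.9 (-0.96, adjusted p = 0.0232), and its groups overlapped. Inhbb, the gene of the other activin subunit, had 51.5 ± 29.8 and 115 ± 59.1 normalised reads and was not called (1.21, adjusted p = 0.110).

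Of 12 genes widely used as readouts of TGF-beta signalling, 4 rose, and the median log2 difference over the 12 was 0.94. Junb, an AP-1 subunit gene that the pathway induces early, rose from 387 ± 70.8 to 872 ± 138 (log2 difference 1.17, limma adjusted p = 0.00397), with Prdx2 on the opposite strand. Timp1, the gene of a metalloproteinase inhibitor, rose from 474 ± 435 to 2002 ± 400.3 (2.52, adjusted p = 0.0121). The fibrillar collagen genes Col3a1 (2.40, adjusted p = 0.0167) and Col1a1 (1.68, adjusted p = 0.0214) rose too, with overlapping groups for Col3a1. Ctgf, also called Ccn2, the gene of a matrix-associated growth factor (0.56, adjusted p = 0.142), did not pass the test, nor did the myofibroblast gene Acta2 (0.15, adjusted p = 0.665). Several of these genes are also abundant in fibroblasts and bone cells, whose marker sums also moved with the label. The 5 osteoblast markers summed to 1011 to 6593 normalised reads in control libraries and 5394 to 11717 in the others, and 3 of the 5 were called higher.

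**Figure D4:**
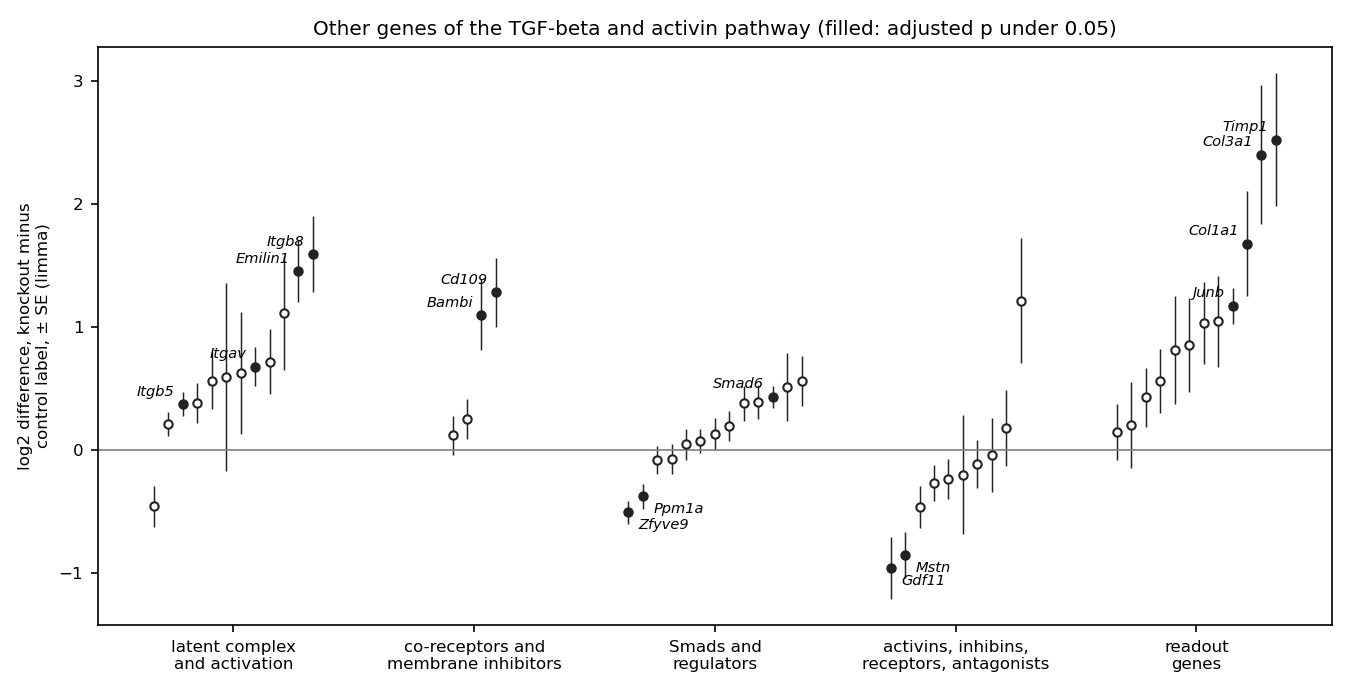
Log2 difference between the groups (vertical axis, libraries labelled knockout minus control, with the standard error of the limma fit) for 51 further pathway genes in 5 groups, filled and named where the adjusted p was under 0.05. The largest difference is that of Timp1 at 2.52, and Zfyve9, Ppm1a, Mstn and Gdf11 are the called genes below 0.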

How the data were processed

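Poly-A RNA of 8 knee joints was sequenced, per the labels. Reads were aligned with HISAT2 to mm10 and counted per gene with featureCounts, per the submitters' processing notes, with no versions and no strand setting given in the sources used here. The values used are the authors' deposited normalised counts, a signal on a linear scale: read counts divided by DESeq2 size factors. In each library 100% of the values came out as whole numbers of reads within a tolerance of 0.001, which says little for control replicate 2 and knockout replicate 1, whose step lay near 1, and recomputed median-of-ratios size factors matched the deposited scaling. All value columns were mapped to samples.

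The main test was limma 3.58.1 (R 4.3.3) with a trend on log2(value + 1), so a fold change of a low gene is understated. Genes needed 10 or more normalised reads in no fewer than 4 libraries, with Benjamini-Hochberg adjustment over 14949 genes and a threshold of 0.05. Ratios of 2 genes were tested with a two-sided exact permutation test over samples. edgeR 4.0.16 and DESeq2 1.42.0 on the recovered reads, other pseudocounts, filters and scalings, a replicate block, a muscle score and leaving out each library were alternatives. The test scripts were first tested on simulated data. There 37 of 212 calls by DESeq2 were false, against 7 of 168 by limma and 8 of 169 by edgeR.

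Exon lengths, positions and overlapping genes are from GENCODE M21, which matched 99.2% of the gene names, and promoter sequences from RefSeq on GRCm38.p6. The genes followed and all lists were chosen with earlier results of these data known. From each list at most 4 called genes, those of smallest p, were named. Itgb6, Smad2, Smad3, Smad4, Smad7, Inhbb, Ctgf and Acta2 were named outside that rule, after their values were seen. Some genes are not reported here.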

Additional observations from a re-analysis of the deposited data

How the results depend on the processing

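Of the 5 genes called higher, Tgfb3 and Ltbp1 stayed called under every alternative run except the muscle score as a covariate. With that covariate, which lay mostly between the groups, 0 genes of the table, 0 of the 10 genes and 0 of the 51 other pathway genes were called, with 608, 0 and 2 at an unadjusted p under 0.05. The log2 difference then turned to -0.27 for Tgfb1, -0.26 for Tgfbr2, -1.55 for Ltbp2, -0.46 for Ltbp3 and -0.53 for Inhba, and it was 0.07 for Tgfb3, 0.23 for Tgfbr1 and 0.52 for Ltbp1, each with an adjusted p of 0.999. The cause was not tested.

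Leaving out each library gave 1751 to 3841 genes called, with 1887 without control replicate 2, 2194 without control replicate 4 and 1751 without knockout replicate 4. Of the 10 genes, 2 to 6 were called: 2 when control replicate 2 or knockout replicate 4 was left out, and 3 without control replicate 4. Among the other pathway genes 9 to 20 were called, 9 of them without knockout replicate 4. Of the 10 ratios, 1 to 4 had an exact p under 0.05, with 4 when control replicate 3 was left out and 1 when controls 1 or 4 or knockouts 2, 3 or 4 were. The smallest p of 3 against 4 libraries is 0.0286. Values near 0 changed sign: Tgfb2 ranged from -0.061 to 0.024, and was 0.0090 under quantile normalisation and 0.14 under the scaling without muscle genes. The ratio of Ltbp2 to Ltbp1 ranged from -0.30 to 0.24 and was 0.0017 with a pseudocount of 10, and that of Tgfbr2 to Tgfbr1 ranged from -0.012 to 0.19.

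Replicate numbers are shared by the groups, but only 1 of 4 same-numbered pairs deviated together by more than 0.1, with correlations of -0.23 to 0.21, so they were not taken as pairs. With the replicate block 2018 genes were called, and 3 of the 10: Tgfb3, Tgfbr1 and Ltbp1. In the block 0 ratios could pass, since 4 pairs allow no exact p under 0.125. On the recovered reads edgeR called 3324 genes and DESeq2 4125, against 3461 by limma. The alternatives for the other pathway genes and the longest transcript length were chosen after seeing the data. The lowest value of the 10 genes rested on 60 reads, and the effect of depth on the calls was not tested.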

Other observations

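The genes whose pattern over the 8 libraries lay nearest to each ligand gene were found by the mean absolute difference of log2(value + 1), each gene centred on its own mean, with the 10 genes left out. For Tgfb1 these were Numbl (0.0759), Mical1 (0.0982) and Ifitm2 (0.114), against a median of 0.567 over all genes tested. For Tgfb2 they were Btbd10 (0.0269), Vps18 (0.0391) and Atp6v1d (0.0396), against a median of 0.257. For Tgfb3 they were Ostf1 (0.0290), Sumo3 (0.0399) and Slc35b4 (0.0442), against a median of 0.317. For Inhba they were Fn1 (0.186), Tgfbi (0.194) and Ssc5d (0.207), against a median of 0.809, and Fn1 and Tgfbi are also on the list of readout genes above. The libraries share their depth and tissue makeup across all of these genes, so the likeness is given as a description.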
